A study of Rattus norvegicus with 9 samples.

Results

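Inhibitory synapses of the hippocampus release GABA onto chloride channels, and 7 genes that stand for the steps of this transmission were followed here in rat primary hippocampal neurons. They were Gad1 and Gad2 (GABA synthesis), Slc32a1 (loading of GABA into vesicles), Gphn and Nlgn2 (assembly of the postsynaptic site), Gabra2 (a receptor subunit) and Slc12a5 (chloride extrusion). The rows with these gene symbols were taken from the expression table, 7 of 34092 genes. Neurons came from wild-type rat foetuses of embryonic day 17 and were used at 7 days in vitro (DIV). One group of 3 libraries received vehicle, another 3 received 1 nM human NPCT (aminoprocalcitonin, the amino-terminal peptide cleaved from procalcitonin) for 24 h, and the last 3 received 1 nM human PCT (procalcitonin, the parent peptide) for 24 h. The length of the vehicle incubation was not given in the labels. The methods describe RNA from pooled biological triplicates while the labels number 3 replicates per group, so the p-values below may measure technical spread only. The cultures were grown without mitotic inhibitors, hence they can hold glia beside neurons.

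GABA is made from glutamate by glutamate decarboxylase, whose isoforms GAD67 and GAD65 are the products of Gad1 and Gad2, and the vesicular transporter VGAT (Slc32a1) packs it for release. At the postsynaptic membrane neuroligin 2 (Nlgn2) recruits gephyrin (Gphn), the scaffold that holds GABA-A receptors in clusters. The current through these receptors is inhibitory only where chloride is kept low inside the cell, and the exporter KCC2 (Slc12a5), which increases as neurons mature, does this against the importer NKCC1 (Slc12a2). The study stained gephyrin as its marker of the inhibitory synapse and PSD-95 (Dlg4) as that of the excitatory synapse, and the question put to the data here was whether the transcripts of the inhibitory side differed after either peptide.

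The upstream sequences of the 3 genes that define a GABAergic neuron are shown because, in the results below, Gad1 and Gad2 were lower with NPCT than with PCT whereas Slc32a1 was not. Each run is the 250 bases before the RefSeq gene start on GRCr8, on the strand of the gene, 5′ to 3′, and the capitals mark the matches to the motifs listed after them. They lie at chr3:75777202-75777451 (Gad1), chr17:89671468-89671717 (Gad2) and chr3:167686995-167687244 (Slc32a1), all on the + strand.
Gad1: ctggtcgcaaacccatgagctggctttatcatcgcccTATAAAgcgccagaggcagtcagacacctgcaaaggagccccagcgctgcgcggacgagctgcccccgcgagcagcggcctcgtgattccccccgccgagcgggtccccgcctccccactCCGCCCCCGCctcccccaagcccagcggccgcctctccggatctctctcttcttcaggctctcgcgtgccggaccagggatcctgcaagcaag
Gad2: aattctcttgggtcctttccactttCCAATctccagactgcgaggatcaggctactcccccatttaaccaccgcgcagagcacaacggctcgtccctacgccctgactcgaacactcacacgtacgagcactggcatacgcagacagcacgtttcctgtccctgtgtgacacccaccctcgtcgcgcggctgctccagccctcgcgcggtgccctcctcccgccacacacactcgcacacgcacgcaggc
Slc32a1: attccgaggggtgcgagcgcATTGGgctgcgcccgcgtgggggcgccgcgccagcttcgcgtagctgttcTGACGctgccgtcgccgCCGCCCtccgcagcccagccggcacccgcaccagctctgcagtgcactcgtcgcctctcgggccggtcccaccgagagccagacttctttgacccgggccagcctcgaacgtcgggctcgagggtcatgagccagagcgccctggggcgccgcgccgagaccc
The promoter table used here matched 6 of the 7 genes, all but Gabra2. The motifs searched on both strands were TATAAA, the GC box GGGCGG, the E-box CACGTG, the cAMP response element TGACGTCA with its shorter form TGACG (which lies within the longer one), the Egr motif GCGNGGGCG and the CAAT box CCAAT. The Gad1 window held TATAAA starting 213 bases before the gene start, and a GC box (CCGCCC, 93 bases before the start) that overlapped an Egr match (CGCCCCCGC, 92 bases before the start). In the Gad2 window only CCAAT was found, 225 bases before the start. The Slc32a1 window held ATTGG at 230, TGACG at 180 and CCGCCC at 163 bases before the start. No motif was found in all 3 windows, and none was shared by Gad1 and Gad2. Slc32a1 shared the GC box with Gad1 and the CAAT box with Gad2. Among all 33469 windows of the same length, 12.9% held TATAAA, 30.5% the GC box, 34.0% CCAAT, 18.2% TGACG, 4.29% the Egr motif, 5.59% the E-box and 1.59% TGACGTCA. Gphn held 1 GC box, Nlgn2 held 3 (of which a pair overlapped), and Slc12a5 held 1 together with an ATTGG. The GC content was 62.0% for Gad2 and 68.4% for Gad1, beside 73.6% for Slc32a1. These matches describe the windows and are no evidence of binding, and their part in the differences of expression was not tested.

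The libraries held between 13573056 and 17211642 fragments counted on genes, with medians of 15027542 for vehicle, 14020181 for NPCT and 15187736 for PCT. PCT replicate 3 stood apart, since its fragments differed from those of the other PCT libraries with a chi-square per degree of freedom of 23.0 and 20.2, against 6.70 for PCT replicates 1 and 2 and 4.34 to 5.21 within vehicle. NPCT replicate 3 stood apart to a lesser degree, at 11.3 and 11.4 against 4.58 for NPCT replicates 1 and 2. For the 7 genes and the genes named from lists, differences that involve PCT are therefore given with and without PCT replicate 3, and the calls for the 7 genes also without NPCT replicate 3. Neuronal transcripts were abundant, with 10 markers summing to between 1982 and 2333 FPKM per library, but the 8 astrocyte markers summed to between 2101 and 2658 FPKM, so the cultures held both. Oligodendrocyte lineage markers (8 genes) summed to 409 to 426 FPKM with vehicle, 438 to 452 with NPCT and 353 to 367 with PCT. The 7 microglial markers in the table summed to 19.8 to 27.4 FPKM with vehicle, 27.3 to 114 with NPCT (114 in replicate 3, 30.6 and 27.3 in the others) and 8.39 to 10.9 with PCT, and the 4 endothelial markers to at most 0.614 FPKM, 1 of them listed at 0 in every library. Mitochondrially encoded transcripts took 5.18 to 5.84% of fragments with vehicle, 3.70 to 4.17% with NPCT and 4.11 to 6.21% with PCT. The part of these cell types and shares in the results below was not tested. In bulk RNA, fewer cells of a type and less RNA per cell cannot be told apart.

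All 7 genes were well expressed, with percentiles of 75.1 to 93.7 for mean FPKM (fragments scaled to the length of the transcript and to the depth of the library, hence comparable between genes) among the 15958 genes tested. Each rested on 741 to 6367 fragments per library. With vehicle the order of the FPKM levels was Gabra2, Nlgn2, Gphn, Slc12a5, Gad1, Gad2 and Slc32a1, from 82.5 ± 1.81 down to 23.2 ± 0.806 (SD, n = 3 for all means here). The libraries of Slc12a5 and Gad1 overlapped, as did those of Gad1 and Gad2, whereas the other neighbours in this order did not.

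**Figure D1:**
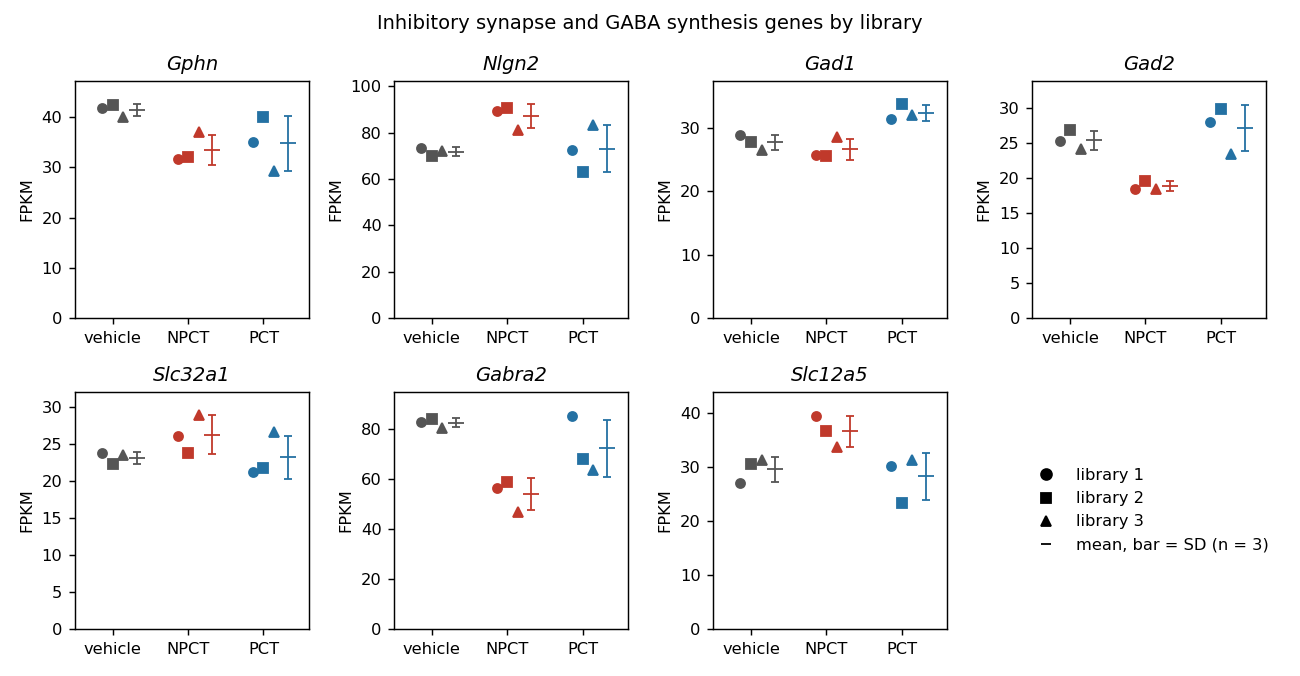
FPKM of the 7 genes in each library, on linear axes from 0. Symbols mark the library number within vehicle, NPCT and PCT, and the bars give mean and SD (n = 3). In the NPCT libraries Gphn, Gad2 and Gabra2 lie below all vehicle libraries and Nlgn2 and Slc12a5 above, while PCT replicate 3 is the lowest of its group for Gphn, Gad2 and Gabra2.

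Between NPCT and PCT, Gad2, Gad1 and Gabra2 differed past the adjusted threshold, all lower with NPCT, and no gene of the 7 passed it for either peptide against vehicle. None of the 7 genes met the thresholds used in the study (adjusted p of at most 0.05 and fold change above 1.5) in any comparison, where 0.219% of all genes tested did for NPCT against vehicle, 2.31% for PCT against vehicle and 5.75% for NPCT against PCT. By adjusted p alone, 3 of the 7 fell with NPCT compared with PCT, beside 16.3% of all genes in either direction and 8.32% lower. For NPCT against vehicle the count was 0 of 7 (background 0.47%) in limma, with 5 of 7 at an unadjusted p under 0.05 (29.3% of all genes), 2 higher (14.4% of all genes) and 3 lower (14.9%). Between these groups 5 genes did not overlap, beside 40.3% of all genes. By limma-voom on the recovered fragments, Gad2 and Gabra2 passed the adjusted threshold for this comparison, both lower, as did 8.79% of all genes (3.49% lower). Without PCT replicate 3, whose spread enters the common variance, Gphn, Nlgn2, Gad2 and Gabra2 did, where 9.57% of all genes passed as lower and 9.71% as higher. Without NPCT replicate 3, 0 of the 7 passed for NPCT against vehicle, and Gad1 and Gad2 did for NPCT against PCT (log2 differences of -0.33 and -0.50, beside 4.35% of all genes lower) whereas Gabra2 did not (-0.31, adjusted p = 0.116, limma). For PCT against vehicle it was 0 of 7 (background 4.2%) in limma and in limma-voom, with 2 at an unadjusted p under 0.05 (18.9% of all genes) and 2 without overlap (24.9%). Between NPCT and PCT 5 had an unadjusted p under 0.05 (33.1% of all genes) and 4 did not overlap (33.4%). The median log2 difference of the 7 genes was -0.061 for NPCT against vehicle, -0.0051 for PCT against vehicle and -0.043 for NPCT against PCT, beside 0.0062, 0.0046 and -0.0076 for all genes, and members stood on both sides of 0.

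**Figure D2:**
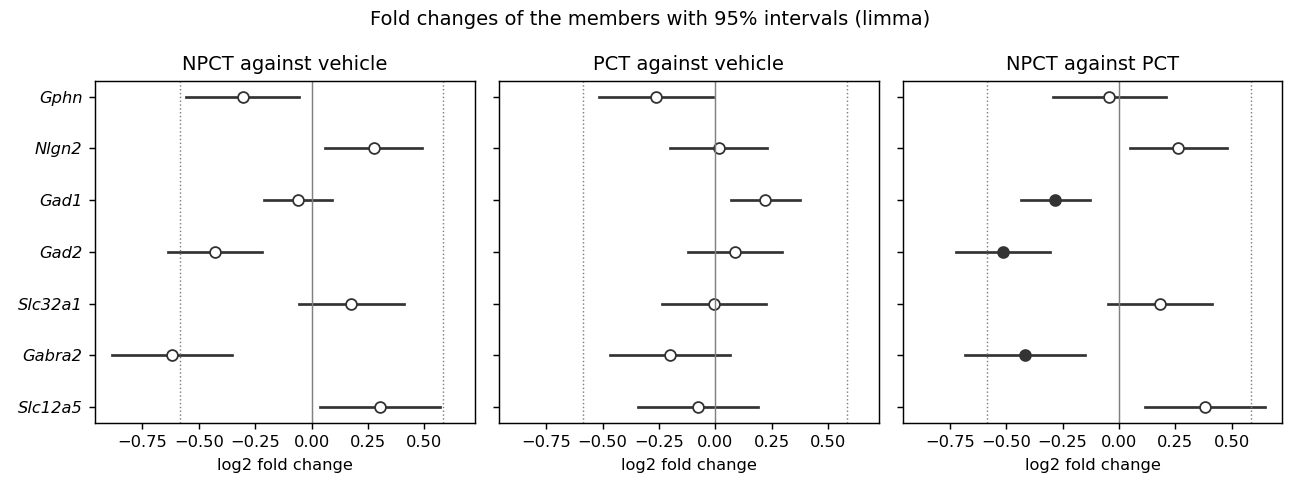
Log2 fold changes of the 7 genes with 95% intervals from limma in the 3 comparisons. Filled points have an adjusted p of at most 0.05 and dotted lines mark a 1.5-fold change. Filled points occur only for Gad1, Gad2 and Gabra2 in NPCT against PCT, and the intervals of Gphn, Gad2 and Gabra2 lie below 0 in NPCT against vehicle while those of Nlgn2 and Slc12a5 lie above.

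Gad2, which encodes GAD65, the isoform found mostly at nerve endings, was the member with the clearest difference between the peptides. It was at 25.3, 26.8 and 24.1 FPKM in the vehicle libraries, at 18.4, 19.6 and 18.4 FPKM with NPCT and at 28.0, 29.8 and 23.4 FPKM with PCT. Every NPCT library was below every vehicle and every PCT library, while PCT and vehicle overlapped. Against PCT, Gad2 fell by 0.52 on the log2 scale with NPCT (95% interval -0.72 to -0.31; limma with Benjamini-Hochberg adjustment, adjusted p = 0.00995), and without PCT replicate 3 the difference was -0.62 (adjusted p = 0.000956, limma). The adjusted p stayed at most 0.0433 under all 20 settings run for this comparison, the reported one included. These settings share libraries, and leaving out a vehicle library does not alter this difference itself, so they are not 20 separate checks. Against vehicle the log2 difference was -0.43 (-0.64 to -0.22), with an adjusted p of 0.0516 (limma) that narrowly missed the threshold of 0.05 and ranged from 0.00533 to 0.17 over the settings. PCT against vehicle gave 0.087 (adjusted p = 0.680, limma), or 0.19 without PCT replicate 3. Leaving out PCT replicate 2 instead gave 0.014, and leaving out vehicle replicate 3 gave 0.05. Gad2 (ENSRNOG00000018200) lies on the + strand at chr17:89171250-89238040 of Rnor_6.0, the build named in the submitters' processing notes, and its gene model spans 5561 bases of exon sequence.

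Gad1, encoding GAD67, the isoform spread through the cell body and terminals, was highest with PCT. Its FPKM were 28.9, 27.7 and 26.5 with vehicle, 25.7, 25.5 and 28.6 with NPCT and 31.3, 33.8 and 31.9 with PCT. The 3 PCT libraries were above all 6 others, and vehicle and NPCT overlapped. Compared with PCT, Gad1 fell by 0.28 with NPCT (-0.43 to -0.13; adjusted p = 0.0259, limma; -0.29 and 0.0194 without PCT replicate 3), and 15 of 20 settings kept it past the threshold. The log2 difference between PCT and vehicle was 0.22 (0.07 to 0.37), which did not pass adjustment (adjusted p = 0.107, limma) and was 0.23 without PCT replicate 3. The difference between NPCT and vehicle was -0.061 (-0.21 to 0.09; adjusted p = 0.575, limma), changing sign to 0.00042 once the trend with gene length was removed. The ratio of Gad1 to Gad2 FPKM within a library was 1.14, 1.04 and 1.10 with vehicle, 1.40, 1.30 and 1.55 with NPCT and 1.12, 1.14 and 1.36 with PCT. NPCT was above vehicle in all libraries, by 0.37 on the log2 scale (two-sided exact permutation p = 0.1, which is as low as 3 against 3 libraries can go, and 0.3 after Benjamini-Hochberg over 15 ratio tests). NPCT and PCT overlapped in this ratio (0.23, exact permutation p = 0.2, and 0.33 without PCT replicate 3). Gad1 (ENSRNOG00000000007) is at chr3:56861396-56902157, + strand.

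Slc32a1, whose product VGAT is used by every GABAergic and glycinergic terminal, gave no difference past adjustment. It was at 23.8, 22.3 and 23.6 FPKM with vehicle, 26.2, 23.8 and 29.0 with NPCT and 21.2, 21.9 and 26.6 with PCT. One NPCT library did not exceed the vehicle range, and PCT replicate 3 was the highest of its group. The log2 differences were 0.18 for NPCT against vehicle (-0.05 to 0.41; adjusted p = 0.277, limma), -0.0051 for PCT against vehicle (adjusted p = 0.989, and -0.11 without PCT replicate 3) and 0.18 for NPCT against PCT (adjusted p = 0.246), the last reaching 0.28 with an adjusted p of 0.0383 without PCT replicate 3. Without NPCT replicate 3 the differences of NPCT shrank to 0.10 from vehicle and 0.11 from PCT, the latter being 0.12 without PCT replicate 1. Relative to the summed FPKM of the glutamate vesicular transporters Slc17a6 and Slc17a7, Slc32a1 stood at 0.186 ± 0.00966 with vehicle, 0.178 ± 0.00915 with NPCT and 0.216 ± 0.0259 with PCT (ratio, SD, n = 3). All PCT libraries exceeded all NPCT libraries in this ratio (log2 difference of NPCT against PCT -0.27, exact two-sided permutation p = 0.1, 0.3 adjusted, and -0.18 without PCT replicate 3), and both groups overlapped vehicle. Slc32a1 (ENSRNOG00000015393) is a short gene at chr3:155103150-155107817, + strand, with the fewest fragments of the 7 (741 to 1114).

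At the postsynaptic site the scaffold and the adhesion molecule stood on opposite sides of vehicle after NPCT. Gphn was at 41.8, 42.4 and 40.1 FPKM with vehicle, 31.6, 32.1 and 37.0 with NPCT and 35.0, 40.1 and 29.2 with PCT. All 6 peptide-treated libraries were below all vehicle libraries, PCT replicate 2 by the least (40.07 against 40.12 FPKM in the lowest vehicle library). The log2 difference was -0.31 for NPCT (-0.56 to -0.05; adjusted p = 0.112, limma) and -0.26 for PCT (-0.51 to -0.01; adjusted p = 0.239, limma), neither past adjustment. Without PCT replicate 3 the PCT value shrank to -0.14 (adjusted p = 0.392, limma). NPCT and PCT were -0.043 apart (-0.29 to 0.21; adjusted p = 0.821, limma), or -0.16 without PCT replicate 3 and 0.06 without PCT replicate 2. Both comparisons with vehicle use the same 3 vehicle libraries. Gphn (ENSRNOG00000028366) occupies 326647 bases at chr6:101532518-101859164, + strand, the longest span of the 7 genes.

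Nlgn2, the neuroligin of inhibitory synapses, was at 73.6, 69.9 and 72.2 FPKM with vehicle, 89.4, 90.9 and 81.3 with NPCT and 72.6, 63.2 and 83.4 with PCT. The NPCT libraries were above all vehicle libraries, and the PCT libraries lay on both sides of vehicle. NPCT exceeded vehicle by 0.28 (0.06 to 0.49), which did not pass adjustment (adjusted p = 0.0997, limma). The difference of PCT from vehicle was 0.015 (adjusted p = 0.961, limma), with -0.09 without PCT replicate 3 and 0.11 without PCT replicate 2. NPCT was 0.26 above PCT (0.05 to 0.48; adjusted p = 0.0918, limma), or 0.36 with an adjusted p of 0.00901 without PCT replicate 3 and 0.16 (0.243) without PCT replicate 2, and it passed in 1 of 20 settings. Nlgn2 (ENSRNOG00000015430) is at chr10:56431573-56444847 on the - strand.

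Gabra2 encodes the alpha 2 subunit, which is abundant in immature hippocampus. Its FPKM were 82.7, 84.2 and 80.6 with vehicle, 56.4, 58.9 and 46.7 with NPCT and 85.1, 68.2 and 63.6 with PCT. Each NPCT library was below every library of the other groups, and PCT replicate 1 was the highest of the 9. The NPCT mean of 54.0 ± 6.48 against 82.5 ± 1.81 with vehicle was a log2 difference of -0.62 (-0.88 to -0.35), the largest among the 7 genes in any of the 3 comparisons. Its adjusted p of 0.0508 (limma) missed the threshold and ranged from 0.00794 to 0.17 over 20 settings, 8 of which put it past 0.05. Against PCT, Gabra2 fell by 0.42 with NPCT (-0.68 to -0.15; adjusted p = 0.0438, limma; -0.50 and 0.0146 without PCT replicate 3), although only 9 of the 20 settings kept it past the threshold. PCT against vehicle gave -0.20 (-0.47 to 0.06; adjusted p = 0.403, limma), or -0.11 without PCT replicate 3 and -0.32 without PCT replicate 1. Gabra2 (ENSRNOG00000002349) is at chr14:39661968-39798302, + strand.

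The GABA-A receptor genes as a family were then described. There were 19 subunit genes, of which 12 passed the filter of a mean FPKM of at least 0.5, and 11 of these 12 were lower with NPCT than with vehicle, with a median log2 difference of -0.39 beside 0.0062 over all genes tested and -0.25 over 10 general neuronal markers, of which 7 were lower. None passed the adjusted threshold here, where Gabrb2 (beta 2 subunit) had the smallest p, at 14.2 ± 0.508 FPKM with vehicle and 9.75 ± 0.537 with NPCT (-0.54, adjusted p = 0.0508, limma), although 5 passed by limma-voom (3.49% of all genes lower), and 9 had an unadjusted p under 0.05, all lower (14.9% of all genes). The exception was Gabrd, the delta subunit of extrasynaptic receptors, named after its value was seen, at only 1.13 ± 0.343 and 1.32 ± 0.423 FPKM. Under the other settings 11 or 12 of the subunits were lower and 0 to 9 passed adjustment. The count was 9 without PCT replicate 3 (9.57% of all genes lower) and with only the 2 groups in the fit (9.06%), and 4 to 6 in 6 other settings (1.37 to 3.76%). Against PCT, 5 of the 12 subunits fell with NPCT (8.32% of all genes; median -0.30, beside -0.23 over the neuronal markers), among them Gabra2 as above, Gabrg1 by 0.54 (adjusted p = 0.0219, limma; -0.56 without PCT replicate 3) and Gabrb2 by 0.35 (adjusted p = 0.0481, limma; -0.43 without PCT replicate 3), which passed in 17 and 8 of 20 settings. This count was 0 with only the 2 groups in the fit (1.83% of all genes) and without PCT replicate 1 or 2 (2.68 and 2.51%), 1 or 2 on leaving out any vehicle or NPCT library (2.36 to 6.07%), and 10 without PCT replicate 3 (14.5% of all genes; median -0.43). For PCT against vehicle the median was -0.07, and 0 of 12 passed adjustment or had an unadjusted p under 0.05 in limma. Without PCT replicate 3 the median turned to 0.06 and without PCT replicate 1 it was -0.17, again with 0 past adjustment. The summed FPKM of the 19 genes was 354 to 372 with vehicle, 254 to 280 with NPCT and 291 to 385 with PCT, so the NPCT libraries stood below all others.

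**Figure D3:**
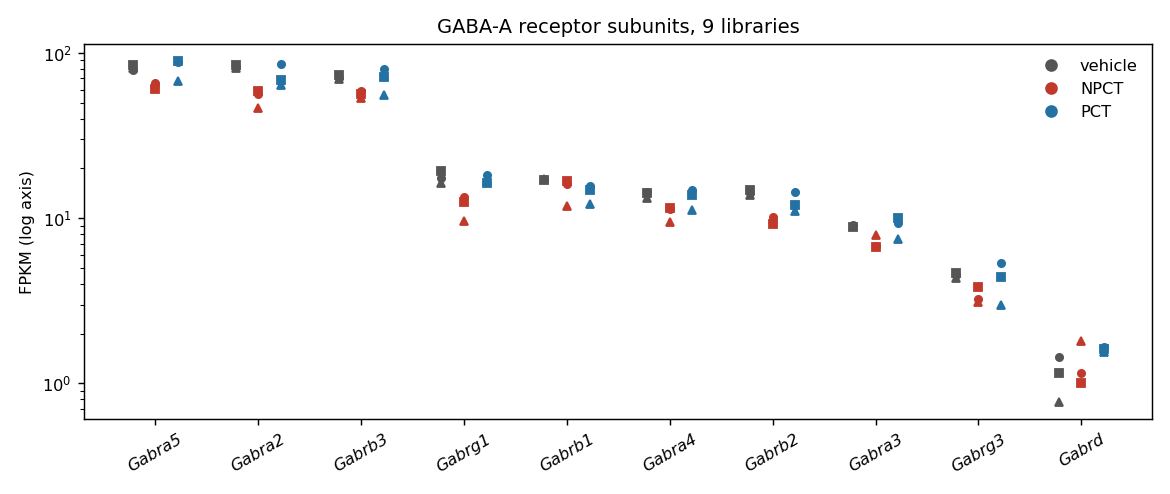
FPKM (log axis) of 10 of the 12 GABA-A receptor subunits tested, ordered by level, 1 point per library and symbols for the library number as in the plot of the 7 genes. In 9 of these 10 all NPCT points lie below all vehicle points, as for 20.3% of all genes tested, and Gabrd overlaps.

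Slc12a5 was at 27.0, 30.5 and 31.4 FPKM with vehicle, 39.4, 36.7 and 33.7 with NPCT and 30.2, 23.3 and 31.3 with PCT. The NPCT libraries were the 3 highest of the 9. NPCT exceeded vehicle by 0.30 (0.04 to 0.57; adjusted p = 0.128, limma) and PCT by 0.38 (0.11 to 0.65; adjusted p = 0.0576, limma), neither past adjustment, although the latter reached 0.46 with an adjusted p of 0.0232 without PCT replicate 3 and was 0.25 (0.137) without PCT replicate 2. The difference between NPCT and PCT passed in 4 of 20 settings, also with quantile normalization, the length trend removed and limma-voom. PCT differed from vehicle by -0.08 (adjusted p = 0.791, limma), by -0.15 without PCT replicate 3 and by 0.06 without PCT replicate 2. Its counterpart Slc12a2, the chloride importer, was at 16.0 ± 1.73 FPKM with vehicle, 13.3 ± 0.968 with NPCT and 17.3 ± 1.26 with PCT, and it fell by 0.38 with NPCT compared with PCT (adjusted p = 0.0350, limma; -0.44 without PCT replicate 3). That call was lost with only the 2 groups in the fit and without vehicle replicate 1, NPCT replicate 1 or 3, or PCT replicate 1 or 2 (adjusted p of at most 0.113). The ratio of exporter to importer was 1.61, 1.78 and 2.24 with vehicle, 3.08, 2.55 and 2.65 with NPCT and 1.66, 1.31 and 1.97 with PCT. Both terms came from bulk RNA of cultures that also held glia, so this is not a ratio within neurons alone. All NPCT libraries lay above all others, by 0.57 on the log2 scale over vehicle and by 0.76 over PCT (exact two-sided permutation p = 0.1 for both, and 0.3 adjusted over 15 tests), the latter 0.90 without PCT replicate 3. Slc12a5 (ENSRNOG00000018111) is at chr3:161425988-161462879, + strand.

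The ratio of Dlg4 to Gphn was taken because these genes encode the excitatory and inhibitory synapse markers stained in the study. The study counted puncta of the marker proteins on dendrites, in cultures grown for longer than those sequenced. It reported that NPCT raised the density of both markers and left their ratio unaltered. A transcript ratio in bulk RNA is a different measure, and its relation to the puncta was not tested. The ratio of Dlg4 to Gphn was 2.98, 2.95 and 3.31 with vehicle, 4.73, 4.45 and 3.93 with NPCT and 3.60, 2.87 and 4.87 with PCT. NPCT was above vehicle in every library, 1.42-fold on average (0.50 on the log2 scale, exact two-sided permutation p = 0.1, 0.3 adjusted), and PCT spanned both groups. Dlg4 itself was at 127 ± 4.80 FPKM with vehicle and 146 ± 3.43 with NPCT (0.19, adjusted p = 0.133, limma), so both terms of the ratio entered the difference. Over 20 genes of the excitatory postsynaptic scaffold the median log2 difference of NPCT from vehicle was 0.023 (11 higher, 9 lower). Over 23 scaffold and adhesion genes of inhibitory synapses it was -0.018 (11 higher, 12 lower), so the ratio describes its 2 genes only. For PCT against vehicle the log2 ratio was 0.26 higher, or 0.06 without PCT replicate 3 and 0.44 without PCT replicate 2.

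**Figure D4:**
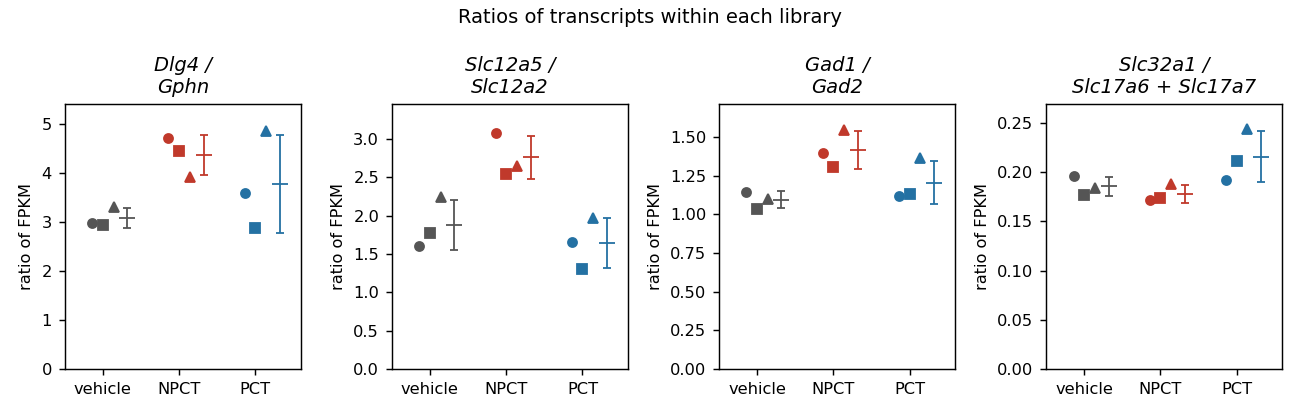
Ratios of FPKM within each library for 4 sets of genes, linear axes from 0, symbols for the library number and bars for mean and SD (n = 3). The ratios Dlg4 to Gphn, Slc12a5 to Slc12a2 and Gad1 to Gad2 do not overlap between NPCT and vehicle, whereas Slc32a1 to Slc17a6 plus Slc17a7 does. Of single genes tested, 40.3% did not overlap in this comparison, and the share over pairs of genes was not taken. Each of the 3 ratios had an exact permutation p of 0.1, the lowest possible, and 0.3 after adjustment.

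The 7 genes did not share a single profile over the 9 libraries. As a measure of likeness, the root mean square difference of 2 genes' log2 levels, each relative to its mean over the libraries, was smallest for Nlgn2 with Slc12a5 (0.10), followed by Nlgn2 with Slc32a1 (0.13) and Gad2 with Gabra2 (0.17). The pairs farthest apart were Gad2 with Slc12a5 and Gabra2 with Slc12a5 (0.44 each), and Gad1 with Gad2 stood at 0.18. Among 9650 protein-coding genes with a mean of at least 5 FPKM, those closest to Gad2 were Nap1l1 (0.035), Elavl2 (0.037) and Picalm (0.040), beside a median of 0.27 over all candidates. Closest to Gabra2 were Dmxl1 (0.059), Nwd2 (0.064) and Glra2 (0.067), the last a glycine receptor subunit, beside a median of 0.32. For Slc12a5 they were Nrxn2 (0.062), Bcan (0.065) and Prrt2 (0.066), for Nlgn2 Fam89b (0.032), Uhrf1bp1 (0.044) and Ehmt2 (0.047), and for Gphn Lrrc8c (0.038) and Myadm (0.048). For Gad1 they were Hspa5 (0.033), Pitrm1 (0.036) and Nek3 (0.042), and for Slc32a1 Yju2 (0.042), Rhbdd3 (0.044) and Chmp1a (0.046). The closest of 9650 candidates lie below the median by construction, so that gap is no evidence of a particular likeness. These lists describe the 9 libraries, which include the groups compared.

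The other genes of each step were counted from lists. Of 23 genes for the scaffold and adhesion molecules of inhibitory synapses, 0 passed adjustment for NPCT against vehicle in limma (median -0.018), with 9 at an unadjusted p under 0.05 (29.3% of all genes), 3 higher (14.4%) and 6 lower (14.9%), whereas limma-voom passed 2 as lower (3.49%) and 1 as higher (5.3%). Dag1, encoding dystroglycan, fell by 0.46 with PCT compared with vehicle (adjusted p = 0.00947, limma; -0.47 without PCT replicate 3), where 2.46% of all genes fell, but it did not pass without vehicle replicate 1 or 3 (adjusted p of at most 0.0542 over the settings). With NPCT compared with PCT 2 of the 23 rose, beside 7.97% of all genes. These were Dag1 by 0.45 (0.45 without PCT replicate 3, past adjustment in all 20 settings) and Nrxn2 by 0.40 (0.51 without PCT replicate 3), the latter in only 9 of 20 settings, where leaving out any library other than PCT replicate 3 ended the call.

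Of 11 genes for GABA synthesis, uptake and breakdown, Glul (glutamine synthetase, an enzyme of astrocytes) fell by 0.71 with PCT compared with vehicle (adjusted p = 0.000535, limma; -0.72 without PCT replicate 3), where 7 of 8 astrocyte markers fell as well (2.46% of all genes). For NPCT against vehicle 0 of the 11 passed adjustment in limma (0.47% of all genes). At an unadjusted p under 0.05, 2 were higher (14.4%) and 3 lower (14.9%). By limma-voom 1 passed adjustment as lower (3.49%) and 1 as higher (5.3%). With NPCT compared with PCT 3 of the 11 rose, along with 5 of 8 astrocyte markers (7.97% of all genes), while Gad1 and Gad2 were the 2 that fell (8.32%). The 3 were Glul by 0.88 (0.90 without PCT replicate 3), the GABA transporter Slc6a11 by 0.60 (0.71) and the GABA transaminase Abat by 0.47 (0.56). They passed adjustment in 20, 17 and 19 of 20 settings, Slc6a11 missing it without NPCT replicate 1 or 2.

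Of 14 chloride transporters and their kinases, 0 passed against vehicle with either peptide in limma, with 7 at an unadjusted p under 0.05 for NPCT (29.3% of all genes) and 1 for PCT (18.9%). By limma-voom 3 were lower (3.49%) and 1 higher (5.3%) for NPCT, and 0 passed for PCT. Slc12a4 rose by 0.48 with NPCT compared with PCT (0.55 without PCT replicate 3, past adjustment in all 20 settings), and Slc12a2 fell as above.

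The counts of these lists moved without PCT replicate 3, as did those of all genes. For NPCT against vehicle, where 9.57% of all genes then passed as lower and 9.71% as higher, they became 3 lower and 4 higher of the 23 scaffold and adhesion genes, 2 lower and 1 higher of the 11 for synthesis and uptake, and 4 lower and 1 higher of the 14 for chloride. For NPCT against PCT, where the shares of all genes were 14.5% lower and 14.6% higher, they became 1 lower and 5 higher, 2 lower and 5 higher, and 4 lower and 3 higher in the same order.

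Other markers of the cells that make GABA were counted in the same way. Of 16 interneuron transcription factors, 0 passed in limma for NPCT against vehicle (0.47% of all genes; median 0.13), with 7 at an unadjusted p under 0.05 (29.3%), whereas limma-voom passed 3 as higher (5.3% of all genes). This median ranged from 0.04 without vehicle replicate 1 to 0.27 without vehicle replicate 3. For PCT against vehicle 0 passed in limma and in limma-voom (median -0.17), with 3 at an unadjusted p under 0.05 (18.9% of all genes). With NPCT compared with PCT 5 rose in limma, beside 7.97% of all genes. Among them were Sp8 by 0.90 (1.03 without PCT replicate 3, past adjustment in 16 of 20 settings and not without NPCT replicate 1 or 3 or PCT replicate 2) and Maf by 0.95 (0.98 without PCT replicate 3, all 20 settings), the latter also expressed by microglia. Of 16 interneuron peptides, calcium-binding proteins and related genes, Penk, encoding the precursor of the enkephalins, was at 13.3 ± 1.89 FPKM with vehicle, 15.9 ± 2.38 with NPCT and 6.42 ± 1.78 with PCT. It fell by 1.08 with PCT compared with vehicle (adjusted p = 0.0271, limma; -1.20 without PCT replicate 3), a call kept in 15 of 20 settings and lost on leaving out any one vehicle library. NPCT stood 1.33 above PCT (adjusted p = 0.00623, limma; 1.44 without PCT replicate 3), while its difference from vehicle was 0.25 (adjusted p = 0.457, limma). Of these 16 genes, 0 passed adjustment in limma for NPCT against vehicle (0.47% of all genes). For NPCT against PCT 1 passed as higher (7.97% of all genes) and 2 as lower (8.32%). In NPCT against PCT Cnr1 was lower by a log2 difference of -0.48 (-0.56 without PCT replicate 3, past adjustment in all 20 settings) and Reln by -0.28 (-0.33), the latter in 11 of 20 settings and lost without vehicle replicate 1 or 3, any NPCT library or PCT replicate 1 or 2.

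Of 10 general neuronal markers, 7 were lower with NPCT than with vehicle (median -0.25) and 6 had an unadjusted p under 0.05, all lower (14.9% of all genes), with Snap25 at -0.42 (adjusted p = 0.0541, limma), and 0 passed adjustment in limma, whereas limma-voom passed 6 as lower (3.49% of all genes). The glycine receptor subunits Glra2 (-0.50, adjusted p = 0.0539, limma) and Glrb (-0.33, adjusted p = 0.0685, limma), named after their values were seen, were lower in every NPCT library than in any vehicle library, as were 20.3% of all genes tested. Without PCT replicate 3, 6 neuronal markers passed as lower (9.57% of all genes) and 1 as higher (9.71%) in that comparison, and 5 of the 16 transcription factors as higher. For NPCT against PCT 6 of the 10 neuronal markers were lower (median -0.23), with 3 past adjustment as lower (8.32% of all genes) and 2 as higher (7.97%), or 6 and 2 without PCT replicate 3 (14.5 and 14.6%). Without NPCT replicate 1, or PCT replicate 1 or 2, these counts fell to 1 and 0 (2.36 to 2.68% and 3.82 to 3.95%). With only the 2 groups in the fit they were also 1 and 0 (1.83 and 2.95%). The median was -0.14 without PCT replicate 1. The differences of Gad1, Gad2, Gabra2 and the GABA-A receptor family between NPCT and PCT stood beside these shifts, whose part in them was not tested. The libraries also differed in their trend with transcript length, whose slope was negative in the 3 NPCT libraries (-0.0263 to -0.019 log2 per doubling) and in PCT replicate 3 (-0.028), and between -0.000465 and 0.0287 in vehicle and the other PCT libraries. After this trend was removed the differences from vehicle with NPCT were -0.65 for Gabra2 (adjusted p = 0.0484, limma, against 0.0508 before) and -0.32 for Gad2 (0.0563 against 0.0516).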

How the data were processed

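RNA of 9 libraries was sequenced with poly-A selection. The authors aligned the clean reads with HISAT2 2.0.5, counted them on genes with featureCounts 1.5.0-p3 and deposited FPKM values. The submitters' processing notes also name Rnor_6.0, CASAVA, StringTie 1.3.3b and DESeq2 1.20.0. The product of deposited FPKM and gene length rose in whole steps, 1 step size per library, for 100% of values (tolerance 0.1 fragment). This gave the fragments per gene, and the steps equalled median-ratio size factors, so the values had been scaled between libraries.

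Values entered limma 3.58.1 (R 4.3.3) as log2(FPKM + 0.1). A single fit held all 9 libraries with 1 mean per group, for 15958 genes whose mean FPKM reached 0.5, and Benjamini-Hochberg adjustment covered all of them in each comparison. The unit is FPKM, so DESeq2 was not used here, and limma-voom on the fragments was an alternative. Calls required both a fold change over 1.5 and an adjusted p no higher than 0.05, as in the study. Ratios were tested by exact permutation over libraries, two-sided. The fit was tested on simulated data. The numbers of the replicates served no pairing, because same-numbered libraries did not deviate together (correlations from -0.072 to 0.034).

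The 7 genes and the lists were chosen with earlier results of these data known. Named in the text are the 7 genes, the 3 genes most like each, the genes of the ratios, and from each list up to 5 genes past the adjusted threshold per comparison or else the one with the smallest p. Genes beyond this are said to be so. Some genes that this rule names, and 1 ratio that was tested, are not reported here. Promoters are from RefSeq on GRCr8. Alternatives changed the pseudocount, the filter on low values, the scaling, the libraries in the fit, a block for the replicate number, the trend with gene length and the tool.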

Additional observations from a re-analysis of the deposited data

How the results depend on the processing

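The calls for NPCT against vehicle depended on the settings, for a reason that was not tested. The smallest adjusted p over all genes was 0.0493 (limma). For this comparison 35 genes were called, against 208 with a mean FPKM of at least 1, 9 with no filter, 189 after quantile normalization, 579 with only the 2 groups in the fit, 129 with the length trend removed and 391 with limma-voom, and 0 to 562 with 1 library left out (562 without PCT replicate 3, 220 without PCT replicate 1, at most 2 without any other). Of the 7 genes, 0 were called, against 1 (Gabra2) with a mean FPKM of at least 1, after quantile normalization, with the 2 groups only and with the length trend removed, and 0 to 1 with 1 library left out. Past adjustment were 0 (0.47% of all genes), against 2 with a mean FPKM of at least 1 (5.05%), quantile normalization (3.77%) or limma-voom (8.79%), 5 with the 2 groups only (18.8%), 1 with the length trend removed (2.6%), and 0 to 4 with 1 library left out (4 without PCT replicate 3, 19.3%; 2 without PCT replicate 1, 4.47%). With a replicate block, which the numbers do not justify as pairing, 319 genes and 1 of the 7 were called and 2 of the 7 (Gad2 and Gabra2, adjusted p = 0.0379 in limma) passed adjustment, beside 7.74% of all genes.

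For PCT against vehicle 368 genes were called, and 172 to 398 with 1 library left out (172, 206 and 187 without vehicle replicate 1, 2 or 3). For NPCT against PCT 918 were called, 454 with the 2 groups only and 525 to 1623 with 1 library left out (570 without NPCT replicate 1, 528, 525 and 1623 without PCT replicate 1, 2 or 3). Past adjustment there were 3 of the 7 (16.3% of all genes), against 1 (Gad2) with the 2 groups only (4.78%) and 1 to 6 with 1 library left out (1 without NPCT replicate 1 or 2 or PCT replicate 1 or 2, 6.24 to 8.79%, and 6 without PCT replicate 3, 29.1%), and 0 to 1 were called. Slc12a5 passed beside these 3 with the length trend removed (17.5% of all genes) and with limma-voom (17%). Gabra2 did not pass with no filter on low values (8.34%). After quantile normalization Slc12a5 passed and Gabra2 did not (15.3%). Gad2 in this comparison passed adjustment in all 20 settings.

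Signs turned in small differences that passed no threshold. Gad1 for NPCT against vehicle was 0.00042 with the length trend removed, Nlgn2 for PCT against vehicle -0.044 after quantile normalization and -0.085 to 0.11 with 1 library left out, and Slc32a1 for PCT against vehicle 0.0083 with limma-voom and -0.11 to 0.056 with 1 library left out. Slc12a5 for PCT against vehicle ran from -0.15 to 0.056 and Gphn for NPCT against PCT from -0.16 to 0.065 with 1 library left out. The cause of these changes was not tested. With 3 libraries per group the exact permutation tests of the ratios could not go below p = 0.1.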
